A study of Mus musculus with 10 samples.

Results

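Interferon-stimulated genes were followed as 35 named genes in endothelial cells purified from mouse gliomas, with and without the transcription factor genes Sox7 or Sox17. The members were found by symbol, and all 35 were present among the 23238 symbols shared by the 10 count tables. Glioma cells (GL26l in the labels' spelling, of the same B6 background) had been injected into the brains of C57BL/6 mice, and Sox7 or Sox17 was deleted in endothelium from floxed alleles (Sox7 fl/fl or Sox17 fl/fl) by the Cdh5(BAC)-CreERT2 driver, a recombinase made in cells that use the VE-cadherin gene and switched on by tamoxifen. There were 2 libraries each of Sox7 control and Sox7-deficient endothelium and 3 each of Sox17 control and Sox17-deficient endothelium. The design text calls the sets independent, and libraries of 1 arm that share a number are taken here as 1 set. The design text gives tamoxifen at 20 mg/kg for the experimental mice; the treatment and alleles of the controls, the age of the mice, the purification method and whether a library is 1 animal or a pool are not given in the sources used here. Effects of tamoxifen or of the recombinase therefore cannot be told apart from those of the deletion, and p-values measure the spread between these libraries, which may be partly technical.

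Interferons are secreted proteins that cells release on sensing viral or misplaced nucleic acid, or that activated lymphocytes release. Type I interferons act through the receptor pair Ifnar1 and Ifnar2 and lead to a complex with Stat2 and Irf9 that binds the interferon-stimulated response element. Interferon gamma acts through Ifngr1 and Ifngr2, and many of its target genes carry the gamma-activated site. The genes switched on encode antiviral proteins, sensors that renew the response, GTPases of cell-autonomous defence and chemokines, and endothelial cells answer both kinds of interferon.

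The response elements can be read in the promoters of the members. RefSeq promoters (build GRCm38.p6, the assembly the submitters' notes call mm10) were matched by symbol for 29 of the 35 members, and the 250 bases before each start were searched on both strands for the core of the interferon-stimulated response element, which is GAAA, any 2 bases and GAAA again, and for TTCNNNGAA, the gamma-activated site pattern. The first was found for 14 of the 29 genes (48.3%), against 3.46% of all 27025 genes in the promoter table. The second was found for 7 (24.1%), against 8.13% of all genes. Both were present in 4 members, and neither in 12. A match is a run of letters and not a shown binding site, and the 2 patterns can share bases.

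Printed here are the promoters of Isg15 and Ifit3, which are among the most abundant members, and of Irf1 and Igtp. Irf1 shows the second pattern alone and Igtp both patterns. The promoters of the 3 neighbouring Ifitm genes are printed too. Ifitm2 and Ifitm1 had the smallest unadjusted p of the members in the Sox17 comparison, where no member was called. Each promoter is read 5′ to 3′ on the gene's strand, ends at the base before the start, and has matched bases in capitals. Isg15 lies at chr4:156200819-156201068, minus strand; Ifit3 at chr19:34583279-34583528, plus strand; Irf1 at chr11:53769764-53770013, plus strand; Igtp at chr11:58199306-58199555, plus strand.
Isg15: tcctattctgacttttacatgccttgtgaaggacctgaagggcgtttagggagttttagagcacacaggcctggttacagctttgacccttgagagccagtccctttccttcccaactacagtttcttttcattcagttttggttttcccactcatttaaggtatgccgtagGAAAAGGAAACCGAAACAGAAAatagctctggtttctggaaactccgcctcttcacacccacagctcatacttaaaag
Ifit3: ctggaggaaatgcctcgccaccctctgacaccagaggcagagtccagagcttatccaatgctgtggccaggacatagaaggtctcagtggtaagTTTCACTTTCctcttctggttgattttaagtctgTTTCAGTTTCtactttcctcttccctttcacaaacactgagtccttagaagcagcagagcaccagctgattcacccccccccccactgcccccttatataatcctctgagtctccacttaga
Irf1: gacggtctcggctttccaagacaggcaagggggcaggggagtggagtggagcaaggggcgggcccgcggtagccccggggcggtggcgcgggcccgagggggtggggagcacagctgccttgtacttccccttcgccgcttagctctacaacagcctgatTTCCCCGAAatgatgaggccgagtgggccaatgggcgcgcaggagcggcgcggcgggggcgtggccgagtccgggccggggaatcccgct
Igtp: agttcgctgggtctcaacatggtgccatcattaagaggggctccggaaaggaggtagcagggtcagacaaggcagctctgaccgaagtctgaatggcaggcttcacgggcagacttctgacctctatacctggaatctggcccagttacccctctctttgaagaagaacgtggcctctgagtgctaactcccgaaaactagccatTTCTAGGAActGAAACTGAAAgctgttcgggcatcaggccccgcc
The Ifitm promoters lie at chr7:140967826-140968075, plus strand (Ifitm1), chr7:140955962-140956211, minus strand (Ifitm2) and chr7:141010745-141010994, minus strand (Ifitm3).
Ifitm1: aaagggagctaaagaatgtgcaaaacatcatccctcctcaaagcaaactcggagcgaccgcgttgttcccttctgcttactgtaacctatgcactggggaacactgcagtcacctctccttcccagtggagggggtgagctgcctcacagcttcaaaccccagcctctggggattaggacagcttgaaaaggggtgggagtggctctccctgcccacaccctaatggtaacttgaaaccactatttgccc
Ifitm2: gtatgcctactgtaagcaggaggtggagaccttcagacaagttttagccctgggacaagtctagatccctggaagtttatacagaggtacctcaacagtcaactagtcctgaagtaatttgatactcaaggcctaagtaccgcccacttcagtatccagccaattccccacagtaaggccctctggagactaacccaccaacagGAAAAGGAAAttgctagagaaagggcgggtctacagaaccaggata
Ifitm3: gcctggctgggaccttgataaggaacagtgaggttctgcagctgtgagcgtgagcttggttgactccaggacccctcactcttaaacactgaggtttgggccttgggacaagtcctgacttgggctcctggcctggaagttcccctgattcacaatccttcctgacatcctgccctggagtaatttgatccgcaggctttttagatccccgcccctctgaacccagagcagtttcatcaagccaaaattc
Isg15 held 3 overlapping matches of the response element core, the first beginning at position −78 counted back from the start. Ifit3 held 2 on the opposite strand, the first, TTTCACTTTC, at −156. Igtp held the core as GAAACTGAAA at −34 and the gamma-activated pattern as TTCTAGGAA at −45. Irf1 held the gamma-activated pattern as TTCCCCGAA at −90 in the printed window, and neither pattern before its other listed start. Of the Ifitm genes only Ifitm2 held a match, GAAAAGGAAA at −46, and neither pattern was in these 250 bases of Ifitm1 or Ifitm3. The Ifitm1 window lies inside the gene as annotated in GENCODE vM21, which begins at 140967221. Bases before that start were not searched.

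The libraries held between 2082305 and 35068802 counts, from 3′ tags of which a transcript gives 1 whatever its length, so that CPM, a gene's count scaled to a common library size after TMM adjustment, can be set side by side between genes. A floor of 3 counts was 1.36 CPM in the shallowest library, Sox17 control 1, and 0.0846 CPM in the deepest, Sox17-deficient 2; these floors cover counting error only. The targeted transcripts were low in their own libraries: Sox7 had 193 and 64 counts in Sox7 controls and 4 and 5 in Sox7-deficient libraries, and Sox17 had 384, 1140 and 1508 counts in Sox17 controls and 14, 38 and 54 in Sox17-deficient libraries. The floxed exons are not given, so whether the tags lie in the deleted part is unknown. All 10 endothelial markers were detected in every library, with a summed level of 7583 to 16470 CPM.

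Markers of other cells were uneven between libraries, and those of macrophages most so in Sox7-deficient 1. The 15 macrophage and microglia markers summed to 14120 CPM in Sox7-deficient 1, where none was at 0, against 19.8 to 827 CPM in the other 9 libraries, and 8 T and NK cell markers to 49.1 CPM, against 9.48 CPM or less. That library's endothelial sum was 7906 CPM, against 13040 CPM in its control. In bulk samples fewer cells of a type and less RNA per cell cannot be told apart. The summed level of the 35 members was 7811 CPM in Sox7-deficient 1, 8351 CPM in Sox7 control 1, with 827 CPM of macrophage markers, and 5825 and 4530 CPM in Sox7-deficient 2 and Sox7 control 2, where the macrophage markers summed to 109 and 222 CPM. The part of macrophages in the members' values was not tested. Values of Sox7 set 1 are given apart from those of set 2 below.

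Transcripts of the members were abundant in every library. The 35 genes together took between 0.507% (Sox7 control 2) and 0.888% (Sox17 control 1) of the counts. The ribosomal precursor Rn45s took from 3.93% (Sox17-deficient 2) to 28.8% (Sox7-deficient 1), so the members' shares also depend on that row. The geometric mean of the 35 members, as CPM + 1, was 113 and 63.9 in Sox7 controls 1 and 2, 111 and 84.2 in Sox7-deficient libraries 1 and 2, 103, 94.1 and 83.3 in Sox17 controls, and 106, 75.5 and 106 in Sox17-deficient libraries. The deficient and control values overlapped in both arms. The lowest value was that of Sox7 control 2, which also held the lowest level of 11 of the 35 members, among them Ifit3, Rsad2 and Oas1a. The shallow library Sox17 control 1 held the highest level of 10 members, among them Ifit3, Stat2 and Gbp2.

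**Figure D1:**
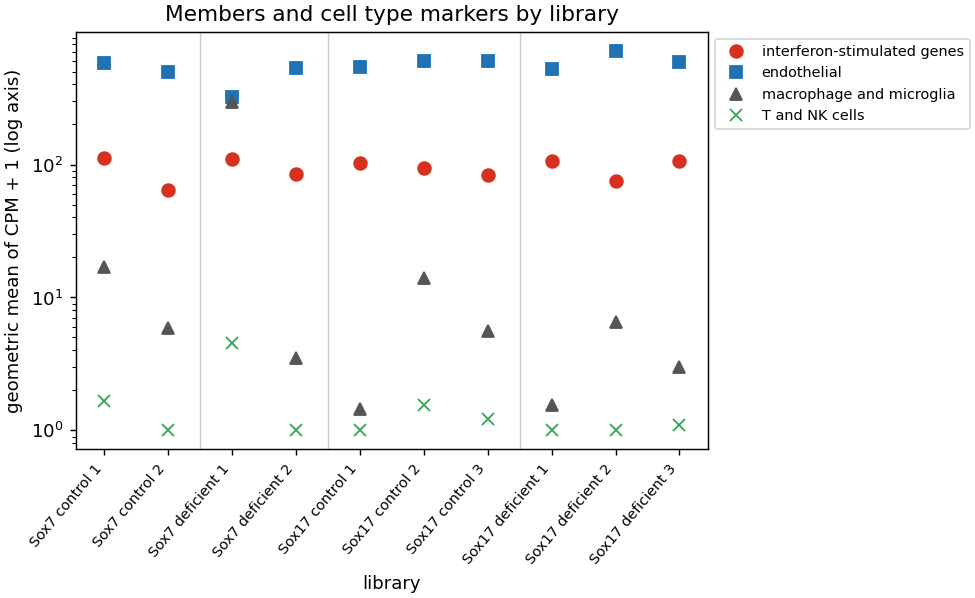
Geometric mean of CPM + 1 (log axis) of the 35 interferon-stimulated genes and of endothelial, macrophage and microglia, and T and NK cell markers, 1 point per list and library. The members stay between 63.9 and 113 in all 10 libraries, while the macrophage markers reach 295 in Sox7-deficient 1 and 17.1 or less elsewhere.

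In the 5 control libraries 33 of the 35 members lay above the median of the 13040 tested genes in mean level, and 18 were at 100 CPM or more. The most abundant were Ifitm3, an endosomal membrane protein that blocks virus entry, at 939 ± 131 CPM (SD, n = 5), and Isg15, a ubiquitin-like modifier, at 819 ± 396 CPM. They were followed by Ifit3, which belongs to the tetratricopeptide proteins that bind viral RNA, at 675 ± 425 CPM, by Bst2 (tetherin), which holds budding virions at the membrane, at 558 ± 383 CPM, and by Irf1 at 487 ± 118 CPM. At the lower end stood Usp18, the protease that removes Isg15 and dampens the type I receptor, at 20.4 ± 17 CPM, Oas1a at 19.2 ± 13.6 CPM, Dhx58 at 14 ± 7.42 CPM and Mx1 at 2.32 ± 4.6 CPM. For each of the 34 pairs of neighbours in this order the ranges over the controls overlapped, so the order is only coarse. The highest control was a median of 3.59 times the lowest over 34 members (Mx1, with zeros, left out), from 1.45 times for Ifitm3 to 61.6 times for Oas1a.

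**Figure D2:**
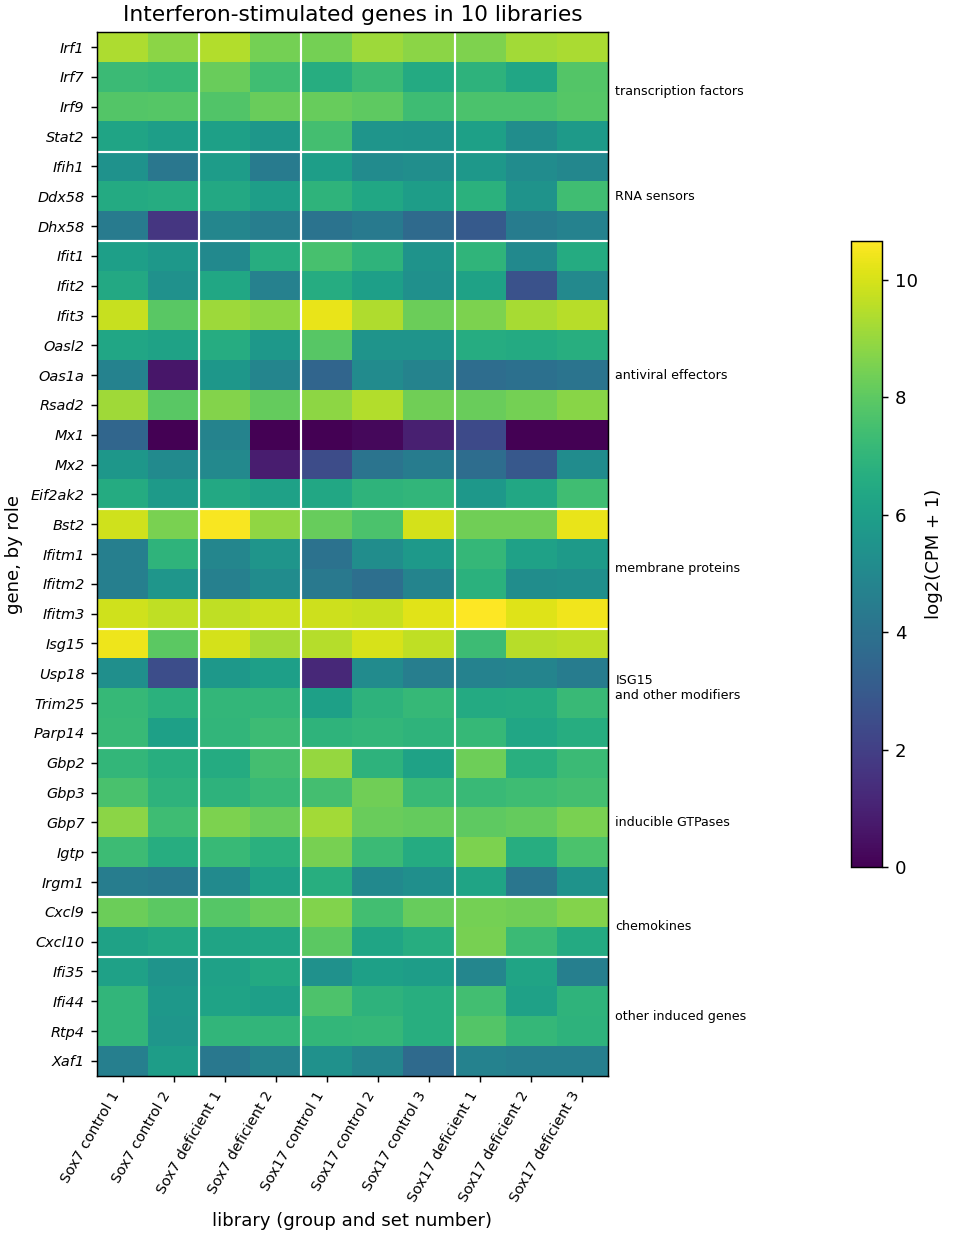
Level of each of the 35 members (rows, by role) in each of the 10 libraries (columns, by group and set number), as log2(CPM + 1) in colour. Ifitm3, Isg15, Ifit3 and Bst2 are bright throughout; Mx1 is at or near 0 in most libraries, and Oas1a, Dhx58 and Usp18 are dark in Sox7 control 2.

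The source of interferon was hardly seen in these cells. Of 9 interferon genes, 7 had 0 counts in all 10 libraries (Ifna1, Ifna2, Ifna4, Ifne, Ifnk, Ifnl2 and Ifnl3), which allows up to 0.0846 CPM each in the deepest library. Ifnb1, the type I interferon made by many cell types, had 3 counts, all in Sox7-deficient 1. Ifng, made by T and NK cells, had 7 counts in Sox7 control 1 and 13 in Sox7-deficient 1 and 0 elsewhere. These were also the 2 libraries with the highest macrophage marker sums; the part of other cells in these counts was not tested.

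The receptors and kinases were present. Ifnar1 and Ifnar2 averaged 173 and 157 CPM over the 10 libraries, the interferon gamma receptor chains Ifngr1 and Ifngr2 77.9 and 21.5 CPM, and the kinases Jak1, Jak2 and Tyk2 191, 104 and 36.3 CPM. Ifnlr1, the receptor chain of type III interferons, had 0 counts in all libraries, while its partner Il10rb averaged 75.8 CPM.

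The Sox7 comparison asked whether members differ when Sox7 is deleted. None of the 35 members passed the threshold with edgeR's quasi-likelihood test (adjusted p = 1 for each), and none had an unadjusted p under 0.05; DESeq2 and limma-voom also called 0 members, with 0 and 2 under an unadjusted 0.05. Over all 13040 genes 0 (0%) were called with edgeR, and 195 (1.5%) had an unadjusted p under 0.05. DESeq2 and limma-voom had 516 and 520 genes under an unadjusted 0.05. With the set number as a block in edgeR, 1 gene, not a member, was called. All 35 members had passed the filter on low counts. Of these, 18 had a log2 fold change above 0 and 17 below, with a median of 0.04 against 0.04 over all genes. The values ran from −1.36 (Mx2) to 1.55 (Oas1a), and 29 of 35 lay within 1 of 0, as did 66.3% of all genes. The median standard error was 0.63 for a member and 1.18 over all genes. The members were more abundant than most tested genes, with a median percentile of 86.8 in the controls. Shares within or beyond 1, here and below, therefore compare unlike levels.

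The 2 sets pulled apart. In set 1, 14 members were higher and 21 lower in the deficient library, with a median difference of −0.08 on the log2(CPM + 1) scale, and 1 member differed by more than 1 (25.5% of all genes did). In set 2, 24 were higher and 10 lower with Mx1 at 0 in both libraries, the median was 0.26, and 10 members differed by more than 1 (39.8% of all genes). Of all tested genes 51.3% were higher in set 1 and 43.5% in set 2, with medians of 0.03 and 0. Without Sox7 control 1 the median over members in the fit was 0.37, with 28 members above 0; over all genes it was then 0.22. Without Sox7-deficient 1 it was −0.11, against −0.26 over all genes.

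The members with the smallest p in this comparison were Irgm1, Oas1a and Usp18. Irgm1, a GTPase of autophagy and of defence inside the cell, had 21.8 and 19.8 CPM in controls 1 and 2 and 33.7 and 66.8 CPM in Sox7-deficient 1 and 2. Both deficient libraries were above both controls, with a log2 fold change of 1.27 (SE 0.74, edgeR unadjusted p = 0.101). Without Sox7-deficient 2 it was 0.70.

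Oas1a, an enzyme that makes the messenger which activates RNase L, had 25.7 and 0.553 CPM in controls and 48.8 and 27.9 CPM in Sox7-deficient libraries. Usp18 had 39.1 and 4.7 CPM in controls and 49.8 and 63.7 CPM in deficient libraries. Dhx58 (LGP2), a helicase that tunes RNA sensing, had 20.8 and 2.21 CPM in controls and 29 and 22.6 CPM in deficient libraries. For all 3 genes the low library was Sox7 control 2, where they had 6, 51 and 24 counts. Their log2 fold changes were 1.55 (SE 1.16), 1.38 (SE 1.06) and 1.16 (SE 1.13), and 3.14, 2.04 and 1.89 with the set as a block. Without Sox7 control 2 they were 0.57, 0.53 and 0.30. Without Sox7 control 1 they were 6.06, 3.57 and 3.51. Each of these 2 fits leaves 1 control in the arm. The near copy Oas1g followed the same libraries, at 22.6 and 1.57 CPM in controls and 33.6 and 29.6 CPM in deficient libraries; the counting could have shared reads between the copies.

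Irf7, the factor that amplifies type I interferon production, had 152 and 139 CPM in controls and 299 and 165 CPM in Sox7-deficient libraries. The groups did not overlap, and the log2 fold change was 0.68 (SE 0.54), or 0.16 without Sox7-deficient 1, the library rich in macrophage transcripts. Ifi35 had 67.6 and 44.5 CPM in controls and 68.1 and 89 CPM in deficient libraries. In all, 6 members had both deficient libraries above both controls (Irf7, Dhx58, Oas1a, Usp18, Irgm1 and Ifi35), against 12.7% of all genes tested. In 2 both were below (Ddx58 and Mx2), against 12.9% of all genes.

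Mx2 and Mx1 encode dynamin-like GTPases that block viral replication, and C57BL/6 mice are known to carry defective copies of them. The annotation (GENCODE vM21) gives Mx2, on chromosome 16, as a polymorphic pseudogene. Mx2 had 48.6 and 33.2 CPM in controls and 31.1 and 0.796 CPM in Sox7-deficient libraries, the last from 6 counts. The log2 fold change was −1.36 (SE 1.23), −2.87 with the set as a block, −5.69 without Sox7-deficient 1 and −0.39 without Sox7-deficient 2. Mx1 had 0 counts in 5 of the 10 libraries, with 88 and 181 counts in control and deficient of Sox7 set 1 and 0 in both libraries of set 2.

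Ifitm1 turned on 1 control. It had 23.4 and 121 CPM in controls and 28.4 and 46.4 CPM in deficient libraries, with a log2 fold change of −0.95 (SE 0.74); without Sox7 control 2 it was 0.67. Xaf1, a pro-apoptotic partner of XIAP, had 23.4 and 59.6 CPM in controls and 18.3 and 26 CPM in deficient libraries (log2 −0.91, SE 0.78), and without Sox7 control 2 it was −0.08. Rtp4 and Parp14, an ADP-ribosyltransferase, had log2 fold changes of 0.54 (SE 0.52) and 0.43 (SE 0.50), and without Sox7 control 2 they were −0.0087 and −0.0426. The core factors lay close to 0: Irf9 had 226 and 228 CPM in controls and 216 and 294 CPM in deficient libraries, and Stat2 had 73.8 and 61.1 CPM in controls and 64.7 and 48.3 CPM in deficient libraries.

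**Figure D3:**
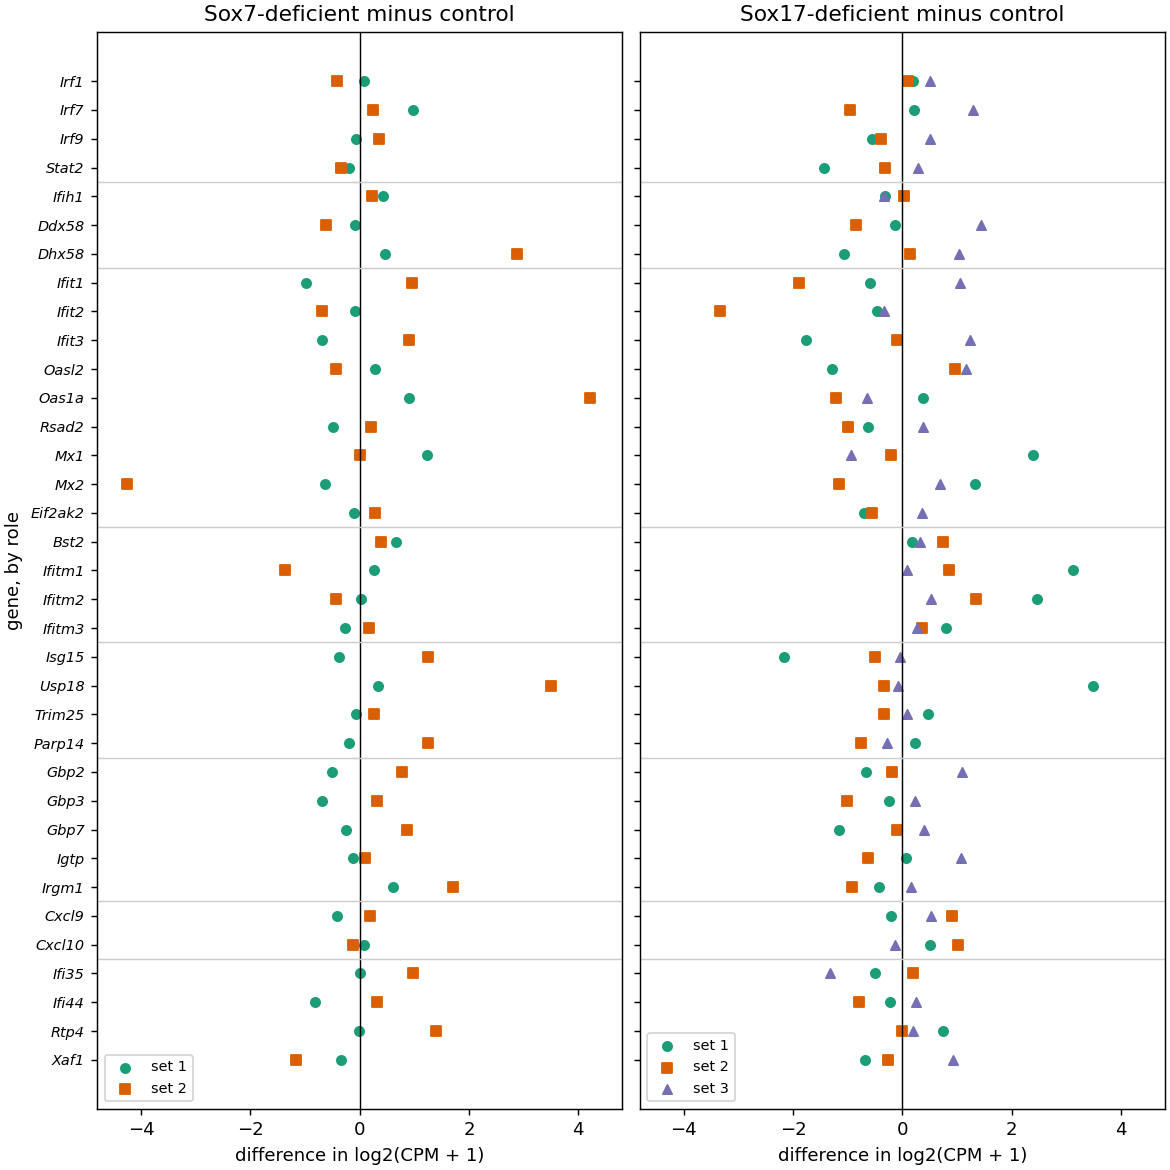
Difference in log2(CPM + 1) between the deficient and the control library of each set (horizontal axis) for the 35 members (vertical axis, by role), Sox7 sets on the left and Sox17 sets on the right. Most members have sets on both sides of 0; Ifitm1, Ifitm2, Ifitm3, Bst2 and Irf1 lie right of 0 in all 3 Sox17 sets.

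The Sox17 comparison asked the same after Sox17 loss. None of the 35 members passed with edgeR (adjusted p = 1 for each); DESeq2 and limma-voom called 0 as well. Unadjusted p was under 0.05 for 2 members with edgeR, Ifitm2 and Ifitm1, for 1 with DESeq2 and for 2 with limma-voom, and for 459 of all 13040 genes (3.52%) with edgeR. DESeq2 and limma-voom had 721 and 684 genes under an unadjusted 0.05. Over all genes 0 (0%) were called, and 6, none of them a member, with the set number as a block. Of the members 16 had a log2 fold change above 0 and 19 below, with a median of −0.17 against 0.05 over all genes. With the block the median was −0.01. The values ran from −0.91 (Ifit2) to 1.79 (Mx1), and 32 of 35 lay within 1 of 0 (72% of all genes). The median standard error was 0.52 for a member and 0.97 over all genes. The Mx1 value had an SE of 2.67, rested on 0, 2 and 15 counts in controls and 31, 0 and 0 in deficient libraries, and was −2.23 with the block; the next highest was Ifitm2.

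By set, 15, 11 and 26 of the 35 members were higher in the Sox17-deficient library of sets 1, 2 and 3, with medians of −0.22, −0.31 and 0.32. Of all 13040 tested genes 53%, 46.7% and 43.5% were higher in these sets, with medians of 0.12, 0 and −0.12. The members thus lay on both sides in all 3 sets, and in set 3 they leaned the other way from sets 1 and 2. Without Sox17 control 1 the median over members was 0.13, and without Sox17-deficient 2 it was 0.05. No member had all deficient libraries below all controls (4.21% of all genes tested did). Beside these values, 6 pericyte markers, all detected in all 6 libraries, summed to 841, 612 and 247 CPM in Sox17 controls and 190, 200 and 198 CPM in deficient libraries. The 15 macrophage markers summed to 24.9, 508 and 131 CPM in controls and 19.8, 234 and 114 CPM in deficient libraries, with 11 at 0 in both libraries of set 1. The part of these cells in the members' values was not tested.

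The Ifitm genes, 3 neighbours within a short stretch of chromosome 7 (GRCm38; Ifitm2 140954837 to 140955987, minus strand; Ifitm1 140967221 to 140969825, plus strand; Ifitm3 141009586 to 141010770, minus strand), were higher in the deficient library of all 3 sets. This held for 5 of the 35 members (14.3%; Irf1 and Bst2 were the others) and for 13.1% of all genes tested, so the share was near the background. The Ifitm genes encode small membrane proteins that hinder the fusion of viruses with cell membranes. Ifitm1 had 15, 36.9 and 51.4 CPM in Sox17 controls 1, 2 and 3 and 138, 67.4 and 54.9 CPM in the deficient libraries. Ifitm2 had 19.1, 13.7 and 26.9 CPM in controls and 110, 36.7 and 38.9 CPM in deficient libraries. Ifitm3 had 926, 880 and 1148 CPM in controls and 1615, 1133 and 1383 CPM in deficient libraries.

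For Ifitm1 and Ifitm2 every deficient library was above every control, the 2 members of 35 for which this held, against 4.13% of all genes tested; for Ifitm3 the groups overlapped. The log2 fold changes were 1.32 (SE 0.61, edgeR unadjusted p = 0.0439) for Ifitm1, 1.64 (SE 0.59, unadjusted p = 0.0129) for Ifitm2 and 0.48 (SE 0.36, unadjusted p = 0.197) for Ifitm3. Set 1 carried much of this: the differences on the log2(CPM + 1) scale were 3.12, 0.85 and 0.10 for Ifitm1 in sets 1, 2 and 3, 2.47, 1.35 and 0.52 for Ifitm2, and 0.80, 0.36 and 0.27 for Ifitm3. Without both libraries of Sox17 set 1, a choice made after seeing the data, the fold changes of Ifitm1 and Ifitm2 were 0.46 and 0.89. Reads may be shared among these similar genes, so their split is uncertain.

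Bst2 was also higher in the deficient library of all 5 sets, the only member of which this was true, against 3.32% of all genes. It had 288, 197 and 1002 CPM in Sox17 controls and 324, 329 and 1253 CPM in Sox17-deficient libraries, and 941 and 365 CPM in Sox7 controls and 1499 and 480 CPM in Sox7-deficient libraries. The libraries of set 3 in the Sox17 arm and of set 1 in the Sox7 arm were the high ones in both genotypes. The spread between sets was larger than the difference within them, and neither edgeR test passed. Irf1, which drives many interferon gamma targets, was at 340, 545 and 443 CPM in Sox17 controls and 389, 584 and 629 CPM in deficient libraries, so the groups overlapped.

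Ifit2, a relative of Ifit3, was lower in the deficient library of all 5 sets, again the only such member (3.34% of all genes). It had 96.6, 63.3 and 40.2 CPM in Sox17 controls and 69.4, 5.36 and 31.8 CPM in deficient libraries, and 84.2 and 40.4 CPM in Sox7 controls and 79.8 and 24.8 CPM in Sox7-deficient libraries. The groups overlapped in both arms. The log2 fold change was −0.91 (SE 0.73) for Sox17, −0.39 without Sox17-deficient 2 and −1.86 without Sox17-deficient 1.

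Isg15 was lower in the deficient library of all 3 Sox17 sets, as were 11.5% of all genes and, of the other members, only Ifit2. It was at 707, 1020 and 801 CPM in controls and 158, 721 and 777 CPM in deficient libraries. The difference in set 3 was −0.04, and the log2 fold change of −0.61 (SE 0.60) was −0.18 without Sox17-deficient 1. Stat2 had 176, 46 and 44.5 CPM in controls and 64.7, 36.9 and 54.3 CPM in deficient libraries. Its value of −0.77 (SE 0.53) rested on the shallow library Sox17 control 1, without which it was 0.18.

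The other effectors gave mixed values. Ifit3 had 1276, 669 and 309 CPM in Sox17 controls and 375, 622 and 729 CPM in deficient libraries, and 875 and 244 CPM in Sox7 controls and 546 and 455 CPM in Sox7-deficient libraries. Its controls thus spanned its deficient libraries in both arms, and its near copy Ifit3b may share its reads. Rsad2 (viperin), which makes a chain-terminating nucleotide, had 464, 692 and 327 CPM in controls and 302, 348 and 429 CPM in deficient libraries (log2 −0.46, SE 0.42; −0.15 without Sox17 control 2). Ifit1 had 188, 122 and 43.7 CPM in controls and 124, 32.1 and 92 CPM in deficient libraries (log2 −0.51, SE 0.58; −0.02 without Sox17 control 1). Both genes had overlapping groups. Gbp3, a guanylate-binding protein that attacks vacuoles of intracellular microbes, had 177, 325 and 150 CPM in controls and 149, 161 and 178 CPM in deficient libraries (log2 −0.42, SE 0.40; −0.01 without Sox17 control 2).

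The chemokines Cxcl9 and Cxcl10, which draw T cells through the receptor Cxcr3, overlapped between groups in both arms. Cxcl10 had 249, 75.5 and 98.6 CPM in Sox17 controls and 355, 155 and 89.5 CPM in deficient libraries, with a log2 fold change of 0.51 (SE 0.51), or −0.21 without Sox17-deficient 1. In the Sox7 arm it was at 68.7 and 81.9 CPM in controls and 72.8 and 75.1 CPM in deficient libraries. Cxcl9 had 401, 172 and 287 CPM in Sox17 controls and 346, 322 and 415 CPM in deficient libraries, and 305 and 252 CPM in Sox7 controls and 229 and 288 CPM in deficient libraries. Libraries of 1 genotype thus differed more from each other than the group means did.

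**Figure D4:**
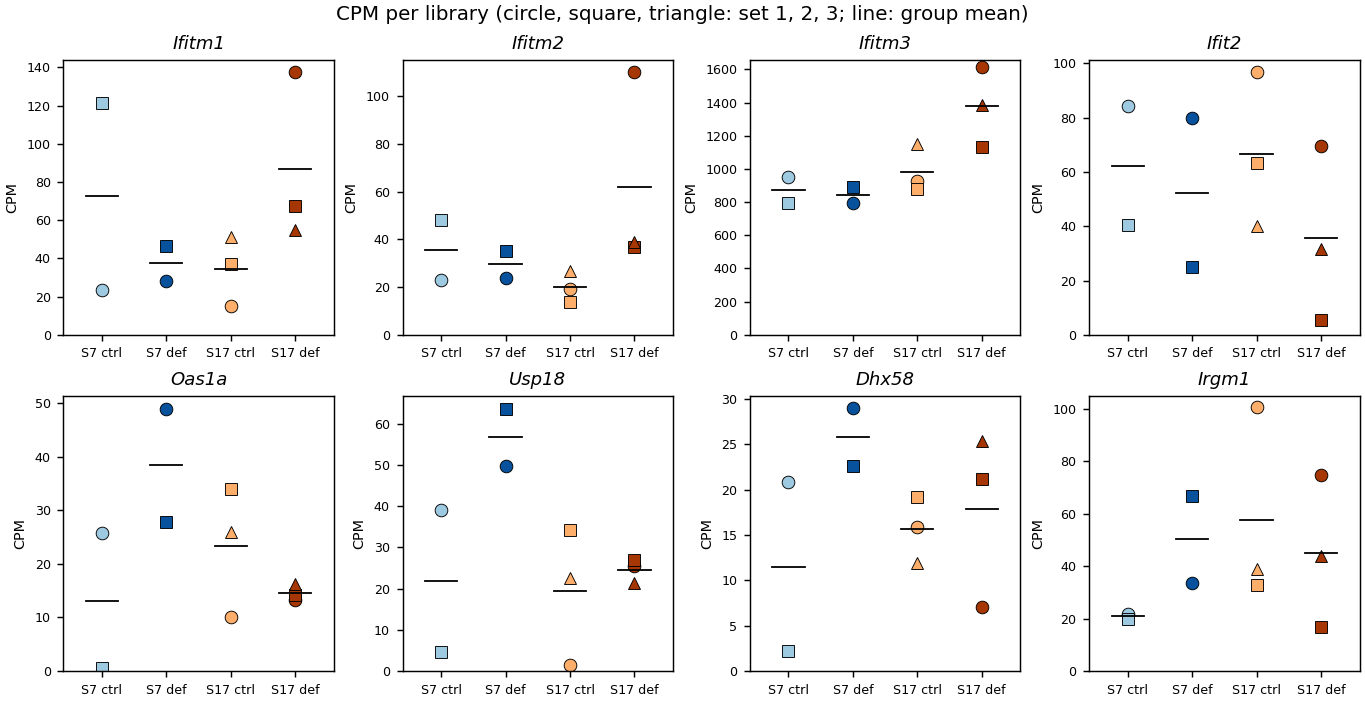
CPM per library of 8 members in the Sox7 control (S7 ctrl), Sox7-deficient (S7 def), Sox17 control (S17 ctrl) and Sox17-deficient (S17 def) groups; circles, squares and triangles are sets 1, 2 and 3 and lines are group means. Ifitm1 and Ifitm2 have all 3 Sox17-deficient libraries above the controls, with set 1 highest at 138 and 110 CPM, and 1 Sox7 control library lies near 0 for Oas1a.

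By role, the 5 GTPases (Gbp2, Gbp3, Gbp7, Igtp and Irgm1) had medians of 0.14 in the Sox7 and −0.34 in the Sox17 comparison, with 3 and 1 above 0. The 9 antiviral effectors had medians of −0.01 and −0.38, with 4 and 2 above 0, and the 4 transcription factors medians of 0.03 and 0.04. The 3 RNA sensors had medians of 0.39 and 0.19: Ddx58 (RIG-I) averaged 92.6 ± 4.08 CPM in Sox7 controls and 73.1 ± 16 CPM in Sox7-deficient libraries (n = 2 each), and Ifih1 (MDA5) 30.2 ± 17.9 and 39.5 ± 26.6 CPM. The 4 membrane protein genes, Bst2 and the Ifitm genes, had medians of −0.16 and 0.90, with 1 and 4 above 0. No role group had a member past the threshold in either comparison.

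Several members barely differed in group means. Trim25, the ubiquitin ligase that activates RIG-I, averaged 125 ± 19.1 and 133 ± 0.913 CPM in Sox7 control and deficient libraries (n = 2 each) and 108 ± 38 and 111 ± 33.1 CPM in the Sox17 arm (n = 3 each). Eif2ak2 (PKR), the kinase that halts translation on double-stranded RNA, averaged 73.7 ± 25.9 and 76.6 ± 13.1 CPM in the Sox7 arm and 111 ± 25.6 and 100.1 ± 60.2 CPM in the Sox17 arm. Igtp averaged 127 ± 40 and 124 ± 25.3 CPM in the Sox7 arm and 201 ± 137 and 223 ± 139 CPM in the Sox17 arm. Of the others, the means in Sox17 controls and deficient libraries (n = 3 each) were 110 ± 112 and 96 ± 6.16 CPM (Oasl2), 232 ± 238 and 191 ± 112 CPM (Gbp2), 384 ± 168 and 301 ± 58.2 CPM (Gbp7) and 141 ± 54.1 and 121 ± 53.4 CPM (Ifi44). In each of these pairs the larger SD exceeded the difference between the means.

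The difference between the 2 comparisons was tested as the Sox7 minus the Sox17 fold change, each arm with its own controls. None of the 35 members passed with edgeR (smallest adjusted p rounds to 1), DESeq2 or limma-voom, and 0 of 13040 genes (0%) were called with edgeR. With each tool 1 member had an unadjusted p under 0.05. This held for 374 of all genes (2.87%) with edgeR, 616 with DESeq2 and 603 with limma-voom, so the edgeR share was near the background. Ifitm1 had −2.27 (SE 0.96, edgeR unadjusted p = 0.0293) and Ifitm2 −1.91 (SE 0.92, unadjusted p = 0.0531). Without Sox7 control 2, the library with 121 CPM of Ifitm1, the Ifitm1 value was −0.65. Irgm1 (1.62, SE 0.95), Oas1a (2.24, SE 1.48) and Ifi35 (0.87, SE 0.79) lay on the other side. Without Sox7 control 2 the Oas1a value was 1.26, without Sox7 control 1 it was 6.77, and without Sox17 control 1 that of Irgm1 was 0.95. The Ifi35 value was 1.57 without Sox17-deficient 2, and the Ifitm2 value −1.20 without Sox17-deficient 1.

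**Figure D5:**
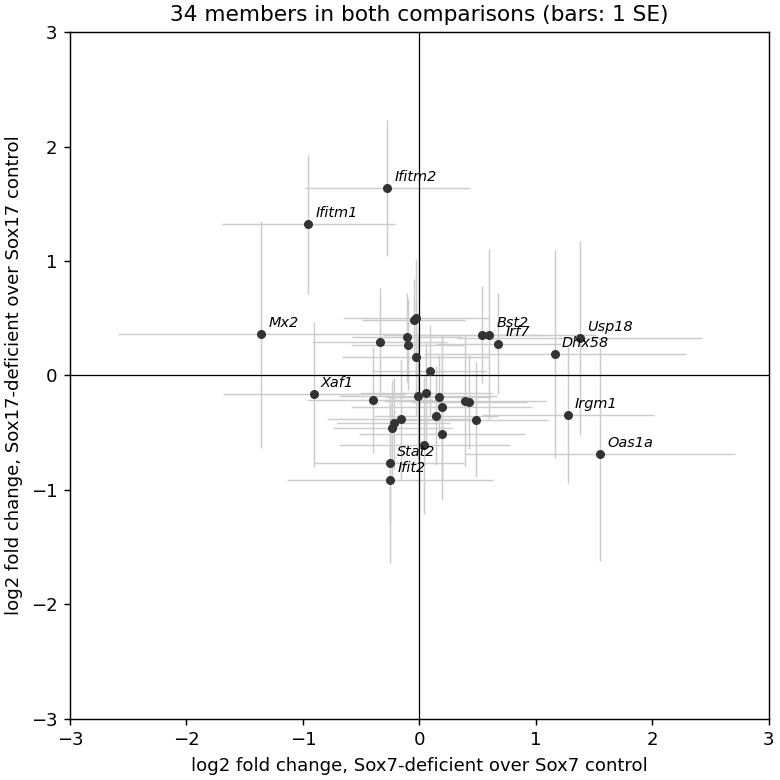
Log2 fold change of 34 members (Mx1, with zeros in 5 libraries, left out) in the Sox7 comparison (horizontal) and the Sox17 comparison (vertical); bars are 1 SE. Most points lie within 1 of 0 on both axes, Ifitm1 and Ifitm2 stand apart at 1.32 and 1.64 on the vertical axis, and no point passed the threshold on either axis.

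Other genes of the pathway also gave no call. Of 9 tested receptor and kinase genes, 6 had a Sox7 fold change above 0 and 4 a Sox17 fold change above 0, and 0 were called. Il10rb had 133, 131 and 55.4 CPM in Sox17 controls and 47, 54.4 and 30.6 CPM in deficient libraries (log2 −1.27, SE 0.49, edgeR unadjusted p = 0.0181, adjusted p = 1). Ifngr1 had 81.2 and 38.5 CPM in Sox7 controls and 205 and 64.6 CPM in deficient libraries (log2 1.17, SE 0.62).

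The 9 regulators had a median of 1.28 in the Sox7 and −0.25 in the Sox17 comparison, with 7 and 3 above 0 and 0 called. Irf8, a factor of myeloid cells, had 138 and 41.9 CPM in Sox7 controls and 420 and 79 CPM in Sox7-deficient libraries. Socs1, an inhibitor of the Janus kinases, had 72.3 and 36.4 CPM in controls and 326 and 32.5 CPM in deficient libraries. In both genes the high value was that of Sox7-deficient 1, the library with 14120 CPM of macrophage markers; the part of those cells was not tested. Pias1, the gene at the list's Sox7 median (log2 1.28, SE 0.66), had 24.7 and 15.3 CPM in Sox7 controls and 40.2 and 56.6 CPM in deficient libraries, so that it was highest in Sox7-deficient 2. Ptpn2, a phosphatase acting on the same kinases, had 10.7 and 0.184 CPM in Sox7 controls and 10.7 and 35.9 CPM in deficient libraries. Irf5 had 21.8 and 20.3 CPM in controls and 153 and 50.7 CPM in deficient libraries. The Sox7 log2 fold changes of Ptpn2 and Irf5 were 2.11 (SE 1.52) and 2.28 (SE 1.40), and their Sox17 log2 fold changes were −2.40 (SE 1.25) and −2.12 (SE 1.15). Socs3 averaged the highest level of the list, 170 CPM.

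Of 12 tested genes of nucleic acid sensing, 9 were above 0 for Sox7 and 5 for Sox17, and 0 were called. Zbp1, a sensor of Z-form nucleic acid, and Tmem173 (STING), the adaptor of DNA sensing, had the highest levels, 147 and 124 CPM. Tmem173 had log2 fold changes of 0.82 (SE 0.58) for Sox7 and 0.55 (SE 0.47) for Sox17, and Tlr3 of 0.36 (SE 0.40) for Sox17. In the Sox7 arm Tmem173 had 102.8 and 72.8 CPM in controls and 249.5 and 60.2 CPM in deficient libraries. The sets thus went opposite ways, and the high value was that of Sox7-deficient 1, the macrophage-rich library. The part of macrophages in it was not tested. Tlr7 had 26.8 CPM in Sox7-deficient 1, 2.03 CPM in its control and 0 counts in the other 8 libraries.

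A list of 36 further interferon-stimulated genes had 23 above 0 and 13 below for Sox7 (median 0.26) and 14 above and 22 below for Sox17 (median −0.08), with 0 called. Ly6a, the Sca-1 antigen of endothelium, averaged 1800 CPM and Gbp5 635 CPM. For Sox7 the smallest p were those of Lgals3bp (62.6 and 40.5 CPM in controls, 365 and 143 CPM in deficient libraries) and Ifi27l2a (13.3 and 13.7 CPM in controls, 67.4 and 67.1 CPM in deficient libraries). Lgals3bp was highest in Sox7-deficient 1, the macrophage-rich library, and Ifi27l2a was alike in both deficient libraries; the part of macrophages was not tested for either. The log2 fold change was 2.30 (SE 0.72, edgeR unadjusted p = 0.0055) for Lgals3bp and 2.32 (SE 0.80, unadjusted p = 0.00919) for Ifi27l2a, with an adjusted p of 1 for both. For Sox17 they were Herc6, an enzyme that attaches Isg15 to proteins, with 14.5, 20.3 and 21.5 CPM in controls and 51.3, 28.4 and 59.2 CPM in deficient libraries (log2 1.29, SE 0.56), and Tgtp1 (log2 −0.83, SE 0.41). Neither passed (adjusted p = 1).

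The fitted spread between libraries of 1 group was near that of other genes of this abundance. edgeR draws each gene's estimate toward the trend at its abundance, so this likeness is partly built in. The median biological coefficient of variation was 0.473 over the 35 members, 0.809 over all tested genes, and 0.475 over the 5532 tested genes in the central range of the members' mean level. Across the 14 members with the response element core in their promoter the median fold change was 0.01 for Sox7 and −0.37 for Sox17, and across the 15 matched members without it −0.05 and −0.16. These are descriptions of small lists from shared libraries.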

How the data were processed

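The authors deposited whole-number counts per gene symbol, 1 table per library, not normalised. Per the labels' protocols, 500 ng of total RNA entered each Lexogen QuantSeq library, which reads 3′ tags. Per the submitters' processing notes, Bowtie2, edgeR and mouse build mm10 were used, with no role or version; the annotation, counting tool and strand setting are not given in the sources used here. For 15 members an annotated exon of another gene overlaps, so reads of the pair could be shared or split.

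Repeated symbols were summed, and 1183 symbols present only in the Sox17 tables, all beginning with Mir, were left out. All 10 libraries were fitted with a mean per group in edgeR 4.0.16 (R 4.3.3) by the quasi-likelihood F-test with TMM scaling; filterByExpr removed 10198 genes. P-values were adjusted by the Benjamini-Hochberg method across the 13040 tested genes, threshold 0.05; the SE is the fold change over the square root of F. CPM uses the TMM-scaled library size. Differences per set use log2(CPM + 1). The fit was tested on simulated data.

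Sets were taken as pairs because the labels' descriptions give the members of 4 of 5 sets a shared run label. Over all tested genes the correlation of paired deviations from group means was 0.193 in the Sox7 arm and 0.12, 0.0911 and 0.0896 in the Sox17 sets. Over the interferon-stimulated genes alone it was 0.421, and 0.298, 0.278 and 0.0808. The main fit leaves the pairing out. With the set as a block, 1 member for Sox7 and 3 for Sox17 had an edgeR unadjusted p under 0.05, and none was called. Alternatives were RLE scaling, no filter, DESeq2 1.42.0, limma-voom 3.58.1, a block for the set, no Rn45s row, 1 arm alone and leaving out libraries. Fold changes are given for the 10 members with the smallest p in each comparison and 5 in the difference, and for pathway genes by list, p and level; members and lists were chosen with earlier results of these data known.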

Additional observations from a re-analysis of the deposited data

How the results depend on the processing

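No member was called in any of the 3 comparisons under any alternative run, which covers RLE scaling, no filter, DESeq2, limma-voom, the replicate block, no Rn45s row, 1 arm alone, each library left out and set 1 of either arm left out. Leaving out 1 Sox7 library left 1 in its group, and leaving out Sox7 set 1 left 1 in each Sox7 group. In those fits the spread came from the remaining groups. Among fits with at least 2 libraries in each group the smallest adjusted p of a member was 0.539, with DESeq2 for Sox17. Calls over all genes, 0 in the Sox7, Sox17 and difference tests, were 58, 30 and 58 without a filter, 4, 39 and 32 with DESeq2, 1, 6 and 3 with the replicate block, and 28, 1 and 4 without Sox7 set 1, a setting chosen after seeing the data. Leaving out 1 library at a time gave 0 to 14, 0 to 1 and 0 to 9 calls, the highest without Sox7-deficient 1 in the first and the last. The median over members ranged from −0.11 to 0.37 for Sox7, from −0.26 to 0.13 for Sox17 and from −0.11 to 0.65 for the difference in these fits. The sign of 5 of 25 named values turned in at least 1 of them: Ifitm1 (−1.72 to 0.67), Rtp4 (−0.0087 to 1.39) and Parp14 (−0.0426 to 1.10) for Sox7, and Stat2 (−1.09 to 0.18) and Cxcl10 (−0.21 to 1.19) for Sox17. The block turned none of these 25, but the Mx1 value for Sox17, 1.79, was −2.23 with it. Of 470 recomputed values of named members 465 kept direction. As no member was called in any fit, this counts signs only, and many refits left the arm's own libraries unchanged. Large shifts in size count as kept, such as Oas1a for Sox7, from 0.57 to 6.06. With 2 or 3 libraries a group the median SEs were 0.63 and 0.52, and a log2 difference of 1.64 (Ifitm2) did not pass. The cause of these shifts was not tested.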
